A study of Rattus norvegicus with 4 samples.

Results

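The miRNAs of the imprinted Dlk1-Dio3 locus were followed in extracellular vesicles released by rat bone marrow macrophages. Members were taken by name: every rat miRNA on the array whose number belongs to a hairpin of the locus, with any letter or arm suffix. The rule gave 85 of the 758 miRNAs on the array, from 42 hairpin numbers. They were read by 200 of the array's 1806 miRNA probes. Of these 85 miRNAs, 82 had a RefSeq entry in the rat build GRCr8, and all 82 lay on chromosome 6 between the genes Dlk1 and Dio3. The other 3 members, miR-127-5p, miR-136-5p and miR-679, were placed by their hairpin number alone.

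The vesicles came from male wild-type Sprague-Dawley rats, with 2 arrays in each of 2 groups. CD45+ CD11b+ bone marrow cells were sorted from femurs and tibias 8 weeks after surgery, which was done at 8 weeks of age, and M-CSF at 20 ng/mL was in the medium of all cells up to day 7. In the group called M0_sham, the rats had a sham operation and the macrophages received no further treatment. In the group called M1_OA, osteoarthritis was modelled in the right knee by 2 operations, ACLT (anterior cruciate ligament transection) and DMM (destabilization of the medial meniscus). Their macrophages were then polarised for 48 hours with 100 ng/mL LPS and 20 ng/mL IFN-γ and given 5 mM ATP for 60 minutes. Surgery, polarisation and ATP changed together and cannot be told apart, and the M0_sham arrays were scanned on another day than the M1_OA arrays, so scan and group cannot be told apart either. The labels do not say whether the arrays of a group came from separate rats or cultures, so p-values here cover the spread of these arrays alone, and that spread may be technical.

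In mammals the Dlk1-Dio3 locus is imprinted: Dlk1, Rtl1 and Dio3, which encode proteins, are expressed from the paternal chromosome, and the long non-coding RNAs Meg3, Rian and Mirg from the maternal one. The miRNAs belong to the maternal side, and many are thought to be cut from the same long transcription unit. They are known mostly from the embryo, the placenta and the brain, and in neurons the cluster is switched on by the activity-dependent factor Mef2. A hairpin can give a mature miRNA from each arm, called 5p and 3p, and one arm is usually kept in preference to the other.

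The members fell into 2 runs of hairpins. The first, around Meg3 and Rtl1, held 23 members of 13 numbers, from miR-770-5p to miR-370-3p, at chr6:134298094-134354559 (56.5 kb). The second, the miR-379/miR-410 segment, held 62 members of 29 numbers, from miR-379-5p to miR-410-3p, at chr6:134543460-134579828 (36.4 kb). A gap of 189 kb separated them. All but 3 of the placed members lay on the plus strand.

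The 3 members that rose well above background on at least 1 array are shown first, because the results turn on them. Sequences are the RefSeq mature miRNAs (GRCr8), 5′ to 3′, with the seed, bases 2 to 8, in capitals. The seed is the stretch that pairs with target mRNAs.
miR-134-5p: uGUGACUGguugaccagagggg
miR-494-3p: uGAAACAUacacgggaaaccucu
miR-370-3p: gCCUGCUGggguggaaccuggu
miR-134-5p lay at chr6:134570320-134570341, miR-494-3p at chr6:134550163-134550185 and miR-370-3p at chr6:134354538-134354559, all on the plus strand. Their seeds differed from one another, and no other rat mature miRNA in the RefSeq table had any of them. The 82 matched members held 76 distinct seeds. There were 5 seeds that more than 1 member carried, covering 11 members. The seed carried by the most members was that of 3 arms of the miR-379/miR-410 segment, shown here because their signals can be set against those of miR-494-3p, the other arm of the first of them.
miR-494-5p: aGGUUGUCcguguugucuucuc
miR-496-5p: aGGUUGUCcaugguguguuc
miR-410-5p: aGGUUGUCugugaugaguucg

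Each probe on this array pairs with the 3′ end of its miRNA, so neighbours with a shared seed can still be read apart. The next lines show, in capitals, the bases that pair with the probes of miR-134-5p and miR-494-3p, each of which had a pair of probes that differ by 1 base in length, with 8 spots a probe on each array. They are shown because the agreement between the probes differed between these miRNAs.
miR-134-5p, 12-base probe: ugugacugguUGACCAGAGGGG
miR-134-5p, 11-base probe: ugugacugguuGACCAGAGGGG
miR-494-3p, 15-base probe: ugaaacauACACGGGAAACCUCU
miR-494-3p, 14-base probe: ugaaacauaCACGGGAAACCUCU

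Most of the cluster was not detected in these vesicles. A miRNA was counted as well above background on an array when any 1 of its probes had the scanner software's flag for that on over 50% of its spots. By this measure 3 of 85 members (3.53%) were well above background on at least 1 array, against 52 (7.73%) of the other miRNAs on the array. M0_sham replicate 1 had 2 members above background, M0_sham replicate 2 had 0, and each M1_OA array had 2. The other miRNAs numbered 21 and 13 on the M0_sham arrays and 40 and 43 on the M1_OA arrays. The counts of the cluster are too low to compare this change with that of the other miRNAs, and the difference was not tested. In the run around Meg3 and Rtl1, 1 of 23 members was detected, and in the miR-379/miR-410 segment 2 of 62.

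The count depended on the definition. With at least 1 flagged spot, 24 members (28.2%) counted as detected, against 35.5% of the others. These members numbered 4 and 0 on the M0_sham arrays and 22 and 5 on the M1_OA arrays, and the other miRNAs 45 and 18, then 191 and 106. With the flag for a signal that is positive and significant, 12 (14.1%) did, against 19.8%. With the gene-level call of the scanner software, 4 (4.71%) did, against 11.1%. The share was lower in the cluster than in the rest under each of these 4 definitions, which is a description of these arrays and was not tested.

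Signals are the scanner's processed signals after background subtraction, in arbitrary units, averaged over the spots of a probe and summed over the probes of a miRNA, so a value near or below 0 means no signal over background. Where 4 values are given without their arrays, the M0_sham replicates come first and the M1_OA replicates second. The negative control spots had median processed signals of 4.35, 4.69, 10.8 and 7.21, so a low value above 0 need not be signal either. These medians were higher on the M1_OA arrays, and their part in unscaled differences between the groups was not tested. A sum above 0 was found for 14, 6, 15 and 10 members. Over the members that were not well above background on an array, the median signal per probe was -1.75, -3.22, -2.74 and -3.28. The same medians over the other undetected miRNAs were -2.03, -3.75, -2.65 and -3.41. The undetected part of the cluster thus sat at the level of the undetected miRNAs of the whole array. The lowest signals that were called well above background were 7.78, 26.7, 16.9 and 14.6. These are the dimmest detected miRNAs and not fixed limits of detection, since the call is made spot by spot. On M0_sham replicate 1, 4 members reached 7.78 but 2 were detected. A member that was not detected is not thereby shown to be absent.

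**Figure D1:**
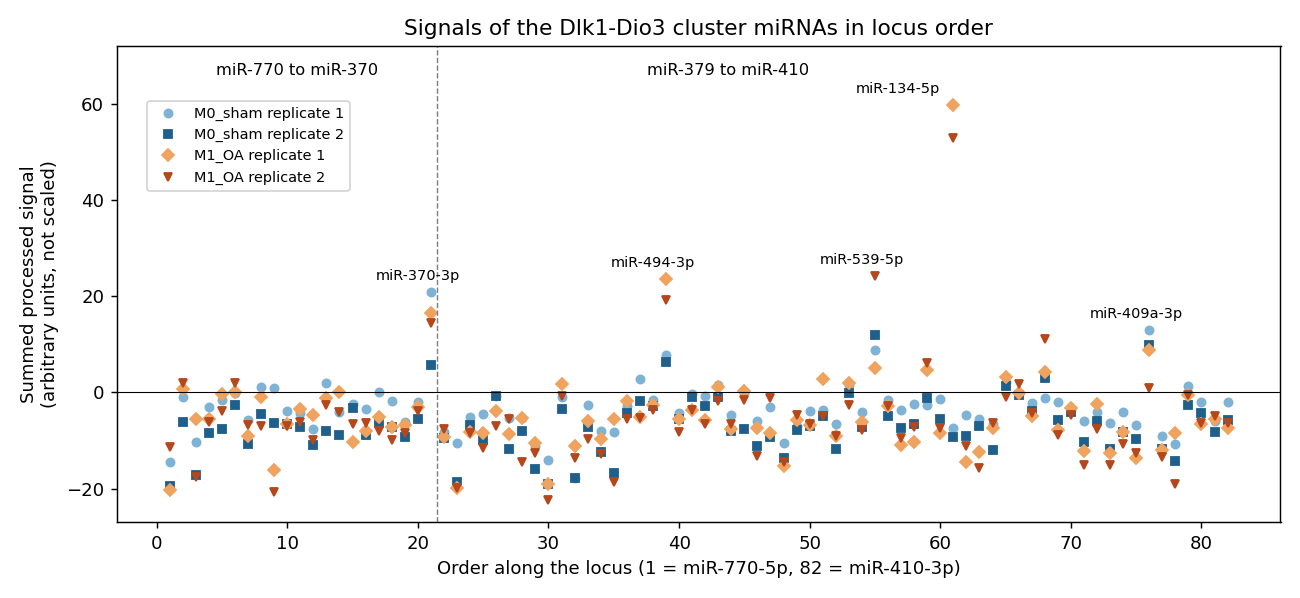
The summed processed signal (y axis, arbitrary units, not scaled) of the 82 placed members is plotted in their order along the locus (x axis), with 1 point for each array and a dashed line between the Meg3-Rtl1 run and the miR-379/miR-410 segment. Nearly all points lie close to or below 0, and miR-134-5p stands at 59.8 and 52.9 on the M1_OA arrays.

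Among the members, miR-134-5p alone was detected on each M1_OA array without being detected on an M0_sham array. In rat hippocampal neurons this miRNA is known to hold back translation of Limk1, a kinase that acts on the actin of dendritic spines. Its summed signal was -7.37 (replicate 1) and -9.36 (replicate 2) in M0_sham, and 59.8 (replicate 1) and 52.9 (replicate 2) in M1_OA. The groups did not overlap, and both M0_sham values were below 0. The share of all miRNAs without overlap was not counted, so no weight is put on this split or on those of members below. An exact permutation test of 2 arrays against 2 gives p = 0.333 for such a split. Of its 16 spots, 0 were flagged as well above background on each M0_sham array, and 16 on each M1_OA array.

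Both probes of miR-134-5p gave the same picture. The 12-base probe averaged -3.27 and -5.40 on the M0_sham arrays and 30.1 and 25.2 on the M1_OA arrays. The 11-base probe averaged -4.10 and -3.96, then 29.7 and 27.7. On the M1_OA arrays miR-134-5p ranked 18 of 42 and 21 of 45 detected miRNAs, so it was of middling signal there. Signals of different probes depend on the probe as well as on the amount of RNA, so such ranks are not an order of abundance.

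For the test, the arrays were brought to a common 75th percentile of the 11 miRNAs detected on all 4 of them, and low values were raised to a floor of 2.98 on the log2 scale. On this scale miR-134-5p stood at 2.98 on both M0_sham arrays, which is the floor. It stood at 4.81 and 5.18 on the M1_OA arrays. The difference was 2.01 ± 0.19 (SE, 2 arrays against 2) on the log2 scale, with a 95% interval of 1.45 to 2.58 and an adjusted p of 0.00392 in limma. Because both M0_sham values are at the floor, the size of this difference depends on the floor and the spread of M0_sham is 0 by construction, so the interval and the p describe the floored values only. miR-134-5p also passed the filter only through M1_OA, where it is high, and with no filter its adjusted p was 0.0639 in limma. The lowest detected signals of the M0_sham arrays give another comparison, although they are not fixed limits of detection. On the scaled values the mean log2 in M1_OA was 5.00, against a mean of 4.67 for these lowest signals, or 1.25-fold. The lowest of M0_sham replicate 1 was 3.99, but that of replicate 2 was 5.35, above both M1_OA values. The scaled values thus give no lower bound on the difference. Without scaling, the mean in M1_OA was 3.90-fold above the mean of the lowest detected signals. The unscaled M1_OA signals, 59.8 and 52.9, were above the lowest detected on either M0_sham array, 7.78 and 26.7. Neither fold is a proven lower bound. An exact permutation test of 2 arrays against 2 cannot go below p = 0.333, so the call rests on the spread that limma shares over miRNAs.

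In that fit 41 miRNAs were tested, those that were detected on every array of M0_sham, of M1_OA or of both. Of these, 26 (63.4%) passed an adjusted p of 0.05 in limma, 22 higher (53.7%) and 4 lower (9.76%) in M1_OA. The cluster had 2 members tested, miR-134-5p and miR-494-3p, of which 1 passed, and it was higher. A count of 1 among 2 is near the share for all miRNAs tested and says nothing particular about the cluster. Both entered the test through the M1_OA arrays. There were 24 miRNAs detected on both M1_OA arrays and on no M0_sham array, as miR-134-5p was, and 19 of them were called higher, so a miRNA that entered this way was likely to be called.

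The median log2 difference over the 41 miRNAs tested was 0.62, and miR-134-5p lay 1.39 above it. This median moved with the scaling, to 1.96 on unscaled values and 2.49 when the spike-ins added at labelling set the scale, where the calls split into 32 higher and 0 lower, and 34 higher and 0 lower. The difference of miR-134-5p was then 2.85 and 3.26, which is 0.90 and 0.77 above the median. With normexp background correction and an offset of 50 it turned to -0.46 (adjusted p = 0.0987 in limma), 0.33 above a median of -0.79. There 4 miRNAs were called higher and 25 lower. The offset is scaled with the signal in that setting, and its part in this turn was not tested. Over the 20 alternative settings, which reuse the same arrays, miR-134-5p was called in 17. Its adjusted p in limma ranged from 1.77e-06 to 0.0987. The lowest came from a fit that paired same-numbered replicates, which nothing in the labels ties. The SE of that fit, 0.34, was larger than the 0.19 of the main fit, so the low p does not reflect a tighter estimate.

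**Figure D2:**
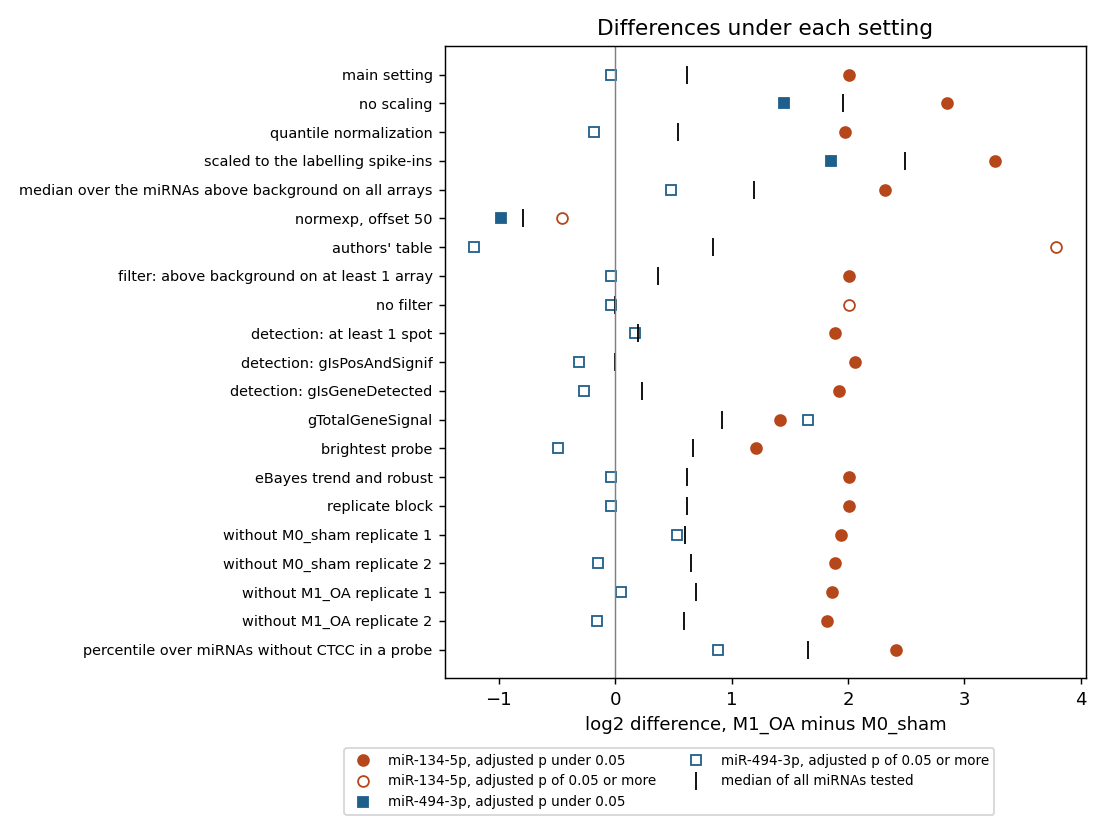
The log2 difference M1_OA minus M0_sham (x axis) of miR-134-5p (circles) and miR-494-3p (squares) is drawn for the main and each alternative setting (y axis), filled where the adjusted p in limma was under 0.05, with a bar at the median of all miRNAs tested. miR-134-5p lies right of 0 in all settings but normexp, and miR-494-3p lies on both sides of 0.

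Set against the other 84 members, miR-134-5p had the highest summed signal on each M1_OA array, while on the M0_sham arrays it lay below background, as nearly all members did. The median of the other 84 was -3.47 and -7.11 on the M0_sham arrays and -5.68 and -6.60 on the M1_OA arrays. The only other member detected on the M1_OA arrays was miR-494-3p, at 23.6 and 19.1. On M1_OA replicate 2 the sum of miR-539-5p was 24.1, but this member has 4 probes, was not above background and had a mean of 6.01 per probe, against 9.53 for miR-494-3p and 26.5 for miR-134-5p. Signals of different probes are not amounts of RNA. The cluster members detected on an array held 0.789% of the signal of all detected miRNAs on M0_sham replicate 1, and 0.350% and 0.322% on the M1_OA arrays. The share was 0 on M0_sham replicate 2, where no member was detected. The total includes the brightest miRNA of each array, miR-1224, at 2698, 5330, 18072 and 17359.

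Neither the other arm of its hairpin nor the arms of the nearest hairpins were well above background on any array. Its opposite arm, miR-134-3p, gave -4.62 and -9.05 on the M0_sham arrays and -14.5 and -11.1 on the M1_OA arrays. The nearest hairpin upstream is that of miR-382. Its 5p arm gave -2.61 and -1.25 in M0_sham and 4.63 and 6.11 in M1_OA, and its groups did not overlap, but it was well above background on no array. On the other side, miR-668, whose hairpin starts 594 bases downstream, gave -5.60, -7.03, -12.4 and -15.8. Farther on, miR-485-3p gave 2.25 and 1.37 in M0_sham and 3.22 and -1.04 in M1_OA, with overlapping groups.

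Other miRNAs were searched for bases that the probe of miR-134-5p could pair with. The longest run shared with its 12 paired bases, among 684 miRNAs of the array with a sequence, was 9 bases in miR-758-5p, another member of the segment. The shared run is in capitals here.
miR-758-5p, shared run: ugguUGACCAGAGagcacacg
miR-758-5p itself gave -8.03, -12.5, -9.79 and -12.8 and was detected on no array. Among the 50 detected miRNAs with a sequence, the longest shared run was 6 bases, in miR-423-5p, miR-6216 and miR-652-5p. Both miR-6216, with 46.1 and 42.8 in M0_sham and 359 and 314 in M1_OA, and miR-652-5p, with 2.19 and 1.39, then 43.0 and 52.9, had higher signals on the M1_OA arrays. The groups of miR-423-5p overlapped, with 11.2 and 38.7, then 39.6 and 28.0. Whether any of the 3 binds the probes of miR-134-5p was not tested.

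miR-494-3p was the second member detected on both M1_OA arrays. Its summed signal was 7.78 and 6.33 in M0_sham and 23.6 and 19.1 in M1_OA. The unscaled groups did not overlap, but miR-494-3p was also above background on M0_sham replicate 1, where its 7.78 was the lowest signal so called. Its mean per probe, 3.89, 3.17, 11.8 and 9.53, was near the negative control medians of the same arrays. All of its flagged spots, 7, 0, 8 and 8 on the 4 arrays, belonged to the 15-base probe, which averaged 8.98, 8.04, 25.1 and 20.1. The 14-base probe, shorter by 1 base, averaged -1.20, -1.71, -1.53 and -1.04. The probes of miR-494-3p thus disagreed on every array, and its signal rests on the longer one.

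On the scaled log2 values miR-494-3p stood at 3.99 and 3.27 in M0_sham and 3.47 and 3.71 in M1_OA, and the groups overlapped. The difference was -0.04 ± 0.32 (SE, 2 arrays against 2), with a 95% interval of -0.99 to 0.91 and an adjusted p of 0.902 in limma. Its direction followed the processing. It was 1.45 with no scaling (adjusted p = 0.00367) and 1.85 with the spike-ins (adjusted p = 4.90e-04), both in limma. In these 2 settings it lay 0.51 and 0.64 below the median of all miRNAs tested, since that median rose as well. With normexp, a background correction and not a scaling, it was -0.98 (adjusted p = 0.00103 in limma). There the offset of 50 is scaled with the signal, and its part in the change of direction was not tested. No direction can be given for miR-494-3p. The opposite arm, miR-494-5p, gave -1.57, -2.77, -2.62 and -3.75. With the same seed as that arm, miR-410-5p gave -6.03, -8.28, -5.54 and -4.94, and miR-496-5p gave -1.11 and 3.05, then 4.14 and 11.0.

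miR-370-3p, the last member of the Meg3-Rtl1 run, is known from human liver cells to repress Cpt1a, which carries fatty acids into mitochondria. Its summed signal was 20.8 and 5.76 in M0_sham and 16.4 and 14.5 in M1_OA. The M0_sham arrays lay on either side of the M1_OA arrays. Of its 16 spots, 12, 0, 3 and 0 were flagged on the 4 arrays, so it was well above background on M0_sham replicate 1 alone and was not tested. After scaling, its signals were 42.4 and 8.78 in M0_sham and 7.68 and 9.93 in M1_OA. With M0_sham replicate 2 left out, it was tested and differed by -2.02 (M1_OA minus M0_sham) on the log2 scale (adjusted p = 0.0134 in limma), with M0_sham resting on 1 array that was taken to vary like the others. With all arrays and a filter of 1 detected array, it was -1.12 (adjusted p = 0.388 in limma). Its opposite arm, miR-370-5p, gave -2.07, -5.62, -3.06 and -3.84.

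**Figure D3:**
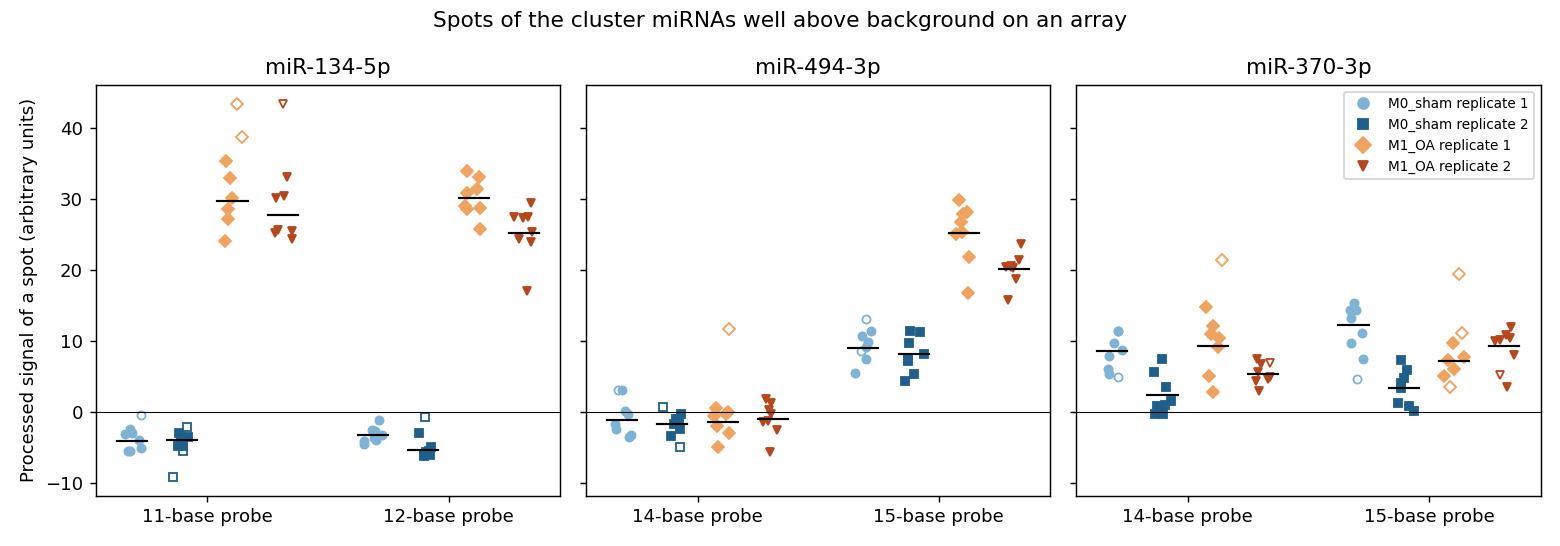
The processed signal of each spot (y axis, arbitrary units) is shown by probe (x axis) and array (symbols) for miR-134-5p, miR-494-3p and miR-370-3p, with bars at the mean and open symbols for spots the scanner software marked as outliers, which were left out of the mean. Both probes of miR-134-5p are high on the M1_OA arrays, only the 15-base probe of miR-494-3p is, and the spots of miR-370-3p overlap between groups.

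The next members by highest signal were miR-539-5p, miR-409a-3p, miR-496-5p, miR-382-5p, miR-485-3p and miR-329-3p, and none was well above background on any array. miR-539-5p gave 8.78 and 11.9 in M0_sham and 5.06 and 24.1 in M1_OA, so its M1_OA arrays lay on either side of the M0_sham arrays. Only 1 of its 16 spots on M1_OA replicate 2 was flagged, at 19.5. miR-409a-3p gave 13.0 and 9.87 in M0_sham and 8.90 and 0.958 in M1_OA. Its M0_sham arrays were both higher than its M1_OA arrays, although the M1_OA replicate 1 sum includes 1 spot at 28.2. miR-329-3p gave 2.86, -1.79, -5.04 and -5.35.

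In the mouse, miR-127 and miR-136 lie antisense to Rtl1 and cut its mRNA. In these vesicles miR-127-3p gave -2.33 and -3.31 in M0_sham and -10.4 and -6.57 in M1_OA, and miR-136-5p gave 1.02, -0.613, -3.31 and -3.65. Neither was detected on any array.

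With values under the floor raised to it, 5 members lay above the floor on some array, and their median log2 difference M1_OA minus M0_sham was -0.66. Over the 84 other miRNAs above the floor the median was -0.00. The 5 were miR-134-5p at 2.01, miR-494-3p at -0.04, miR-539-5p at -0.66, miR-370-3p at -1.12 and miR-409a-3p at -1.34. Of these, miR-539-5p and miR-409a-3p were well above background on no array. The sign of the cluster's median is not settled: it was 0.35 with no scaling, 0.68 with the spike-ins, 0.67 with the total gene signal and 0.10 without M0_sham replicate 1. The floor, 7.90 in scaled signal, is also below the lowest detected signals of the M0_sham arrays, 15.9 and 40.7 after scaling. The other 80 members were at the floor on all 4 arrays and have no difference.

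The authors' deposited table of log2 values gave the same 5 members a value above its own floor of -3.32, that is 5.88% of the cluster against 11.4% of the other miRNAs. In the authors' deposited table miR-134-5p stood at -3.32 and -1.06 in M0_sham and 1.22 and 1.97 in M1_OA. miR-370-3p stood there at 2.10 and 1.22 in M0_sham and -2.62 and -1.85 in M1_OA, with no overlap, while its scanner signals did overlap. In the authors' deposited table miR-494-3p stood at 0.79 and -0.43, then -1.04 and -1.01. How this table was normalised is not given in the sources used here. A limma fit on it gave miR-134-5p a difference of 3.79 with an adjusted p of 0.0527.

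In base composition, detected miRNAs held more G by their median. Among the other miRNAs the median G count was 7.00 in those detected and 5.00 over all. In the cluster, miR-134-5p and miR-370-3p each hold 10 G, against a cluster median of 5.00, and miR-494-3p holds 4. The part of base composition in the signals was not tested. Their GC content was 59.1%, 68.2% and 43.5%, against a cluster median of 47.7%. Across the locus, 18 further miRNAs of the array lay between Dlk1 and Dio3 but outside the rule, and 0 of them were well above background.

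Marker miRNAs of other cell types were read beside these results. Of 6 macrophage and myeloid miRNAs, 4 were detected, with a signal, summed over the values above 0, of 26.3 and 16.8 in M0_sham and 711 and 531 in M1_OA. The largest parts of the M1_OA sums were miR-21-5p, at 387 and 320, and miR-146a-5p, at 191 and 107, so the sums do not measure all 6 alike. miR-223-3p was above background on 3 arrays, with 23.1 and 16.6 in M0_sham, then 59.7 and 43.7. Neither miR-142-3p nor miR-142-5p, the arms of a blood cell miRNA, was above background on any array. All 5 neuronal markers, among them miR-124-3p and miR-9a-5p, were at or below 0 on every array, where the summed neuronal signal was 0. Of the 6 stromal markers 0 were detected, with a summed signal of 0.602 and 0 in M0_sham and 1.56 and 0 in M1_OA. Of 3 muscle markers, miR-206-3p was detected on M1_OA replicate 2, and the muscle sum was 1.25 and 11.5 in M0_sham and 15.7 and 30.3 in M1_OA. The part that the signals of these myeloid and muscle miRNAs have in the difference of miR-134-5p was not tested. Of 8 miRNAs from other imprinted loci, miR-296-5p and miR-483-5p were detected. miR-483-5p, from the Igf2 gene, gave 12.3 and 18.7 in M0_sham and 226 and 208 in M1_OA. Its opposite arm, miR-483-3p, was detected on no array and went the other way, with 12.9 and 14.9, then 8.42 and 4.73. miR-296-5p was also lower on the M1_OA arrays, with 23.4 and 26.7, then 22.1 and 15.6. In none of these 3 did the unscaled groups overlap, but the share of all miRNAs without overlap was not counted. For such a split an exact permutation test of 2 arrays against 2 gives p = 0.333.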

How the data were processed

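Vesicle RNA (0.2 µg an array, Cy3) was hybridised to 1-colour Agilent rat miRNA arrays. Per the file headers, the deposited scanner files hold spot intensities that were background-subtracted in the scanner software, Feature Extraction 10.7.1.1. The deposited table of the series holds log2 values, with scaling and centring not given in the sources used here. The median of each of its columns was -3.32, its floor, and over the 60 to 64 miRNAs above the floor each column correlated best with its own array (Spearman rho 0.857 to 0.987, across miRNAs). Outlier spots were left out, spots averaged, probes summed, arrays scaled to the 75th percentile of the 11 miRNAs detected on all arrays, floored and taken to log2. Differences were tested with limma 3.58.1 in R 4.3.3 (two-sided, Benjamini-Hochberg over 41 miRNAs), which was checked on simulated data. The simulated data had neither the floor nor the filter, so this check does not cover miRNAs at the floor in a group, such as miR-134-5p. The members, lists and the rule for named miRNAs (those detected, their opposite arms, the next 6 by signal and any that share a detected member's seed, of which there were none) were chosen with earlier results of these data known. miR-127-3p, miR-136-5p, miR-668, miR-410-5p, miR-758-5p and the miRNAs outside the cluster were named outside that rule. The number of arrays limits precision. Replicate numbers did not pair the samples: there are only 2 pairs, and nothing in the labels ties them.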

Additional observations from a re-analysis of the deposited data

How the results depend on the processing

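miR-134-5p stayed higher and called in 17 of 20 alternatives. The alternatives reuse the same 4 arrays, so these calls are not separate support. It turned to -0.46 with normexp, where the offset of 50 is scaled with the signal, and missed the threshold with the authors' deposited table (3.79) and with no filter (2.01, adjusted p = 0.0639 in limma). Leaving out 1 array each gave 1.82 to 1.94. M0_sham was at the floor in each of these fits, so this range shows nothing about the spread of M0_sham. Without either M1_OA array the SE was 0.00, since no spread was left in either group by construction. The calls in those fits are therefore no support. miR-494-3p turned to 1.45 with no scaling and 1.85 with the spike-ins. The count of members called was 2 with either of these scalings and 0 with the authors' deposited table and with no filter, where 1 and 2 members had an unadjusted p under 0.05 in limma. Leaving out 1 array gave 1 to 2 members called, the 2 without M0_sham replicate 2. Members detected numbered 24 by 1 spot and 12 by the positive and significant flag, and 2 to 3 with 1 array left out. The miRNAs called numbered 26, against 14 with no filter and 17 with the total gene signal, and 20 to 24 with 1 array left out. The median over members above the floor was 0.35 with no scaling, 0.68 with the spike-ins, 0.67 with the total gene signal and -1.19 to 0.10 with 1 array left out. It was 0.02 with the percentile taken over miRNAs without CTCC in a probe, chosen after seeing the data, where 21 miRNAs were called higher and 0 lower. The cause of these shifts was not tested. With the replicate block, miR-134-5p was 2.01 and called, and 19 miRNAs were higher and 7 lower. The correlation of same-numbered deviations was 0.31 over 41 miRNAs. The 75th percentile over all miRNAs was not run, because it is below 0 on every array.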
